A study of Rattus norvegicus with 10 samples.

Results

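Myrf, Tmem98 and Dusp15 were followed in primary rat oligodendrocytes (OLs) and oligodendrocyte precursor cells (OPCs) whose miR-145-5p had been raised or inhibited. The 3 genes were found by symbol among the 23487 genes of the count table, and each matched a single gene ID. They were chosen by measured values of these libraries, because Myrf and Dusp15 lay lower in OLs given miR-145 and also in OPCs given the miR-145 inhibitor. Their values in these 2 comparisons are therefore given as a description with no test.

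The series held 10 libraries, 2 in each of 5 groups. OPCs were shaken off mixed glial cultures of Sprague-Dawley rat cortex, so other glia can have been carried over. The OL groups were collected 5 days after transfection with the scrambled control mimic (miR-ctl), with the miR-145-5p mimic (miR-145), or with the miR-145-5p and miR-219 mimics together (miR-145+miR-219), in a medium that promotes differentiation. The OPC groups were kept with FGF2 and PDGFAA and collected 24 h after transfection with the miR-145-5p inhibitor (anti-miR-145) or the scrambled inhibitor (anti-miR-ctl). Each mimic or inhibitor was used at 30 nM. A treatment tag on the miR-145 libraries names miR-219 too, whereas their titles name miR-145 alone, and the titles were followed. The study's notes define a replicate of primary cells as cultures of a separate animal, naming mouse where the labels name rat, and do not say whether libraries of the same number in different groups share an animal. The methods paragraph on sequencing names lentiviral transduction where the labels and the results name mimics, and the labels were followed. In bulk RNA, fewer cells of a type and less RNA per cell cannot be told apart.

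Myrf is a transcription factor that is made as a membrane protein. It assembles into trimers and cuts itself, and the released N-terminal part enters the nucleus and switches on myelin genes in OLs that have begun to mature. Tmem98 is a membrane protein that binds Myrf and holds back this self-cleavage. Dusp15 is an atypical dual-specificity phosphatase of OLs, a known target of Myrf that favours differentiation. Counts of RNA report neither the cleavage of Myrf nor the activity of the phosphatase.

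A miRNA and a stretch of promoter are shown, since the first was added to the cells and the second lies before Dusp15. Per the labels, the mimic has the sequence of mature miR-145-5p. It is shown with its seed, bases 2 to 8, in capitals, as RefSeq gives it on the minus strand of the rat assembly GRCr8 (chr18:57370033-57370055).
rno-miR-145-5p: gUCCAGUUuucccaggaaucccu
The RefSeq promoter window of Dusp15, from 250 bases before to 50 bases after the start that the table uses, was searched for the letters of the Myrf motif, CTGGCAC and CTGGTAC, and for the same letters on the other strand, GTGCCAG and GTACCAG. No other motif was searched. It held GTGCCAG, shown in capitals with 50 bases on either side, at 198 to 192 bases before the start (GRCr8, chr3:161879392-161879498, minus strand).
Dusp15 promoter: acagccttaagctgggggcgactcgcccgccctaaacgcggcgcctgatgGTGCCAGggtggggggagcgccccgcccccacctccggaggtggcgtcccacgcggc
The same letters were in 2270 of 33469 rat promoter windows of this length, which is 6.78%. The window of Tmem98 did not hold them, and the table has no entry for Myrf. Among 10 myelin genes with an entry, 5 held them, namely Mag, Opalin, Cldn11, Cnp and Nfasc. These matches describe letters and not binding.

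Library totals ran from 33505668 to 42684176 counts. The labelled cell types could be seen in their markers. The myelin gene Mbp, which codes for myelin basic protein, lay between 6220 and 15500 CPM (counts scaled to a common library size, with TMM normalization over the 10 libraries) in OL libraries and between 231 and 280 CPM in OPC libraries, and Pdgfra, the PDGF receptor of OPCs, between 148 and 265 CPM and between 908 and 1520 CPM. Astrocyte markers were also high in OL cultures. The sum of 6 astrocyte markers was 4980 to 5820 CPM in miR-ctl OLs, 8250 to 12000 CPM in miR-145 OLs and 5910 to 9960 CPM in miR-145+miR-219 OLs, against 413 to 443 CPM in anti-miR-ctl OPCs and 218 to 273 CPM in anti-miR-145 OPCs. The 5 lists examined also covered microglia, fibroblasts or mural cells, neurons and the oligodendrocyte lineage. Col1a2 of the fibroblast or mural list and Snap25 of the neuronal list had no row under those symbols. No marker with a row was at 0 in both libraries of a group. Some were close to it, such as the fibroblast or mural marker Dcn, at 0.0 and 0.0307 CPM in miR-ctl OLs.

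Myrf (ENSRNOG00000028274) had all 6 OL libraries far above the 4 OPC libraries. Replicates 1 and 2 were at 575.2 and 678.2 CPM in miR-ctl OLs, at 404.9 and 568.6 CPM in miR-145 OLs, and at 439.7 and 688.6 CPM in miR-145+miR-219 OLs. In OPCs they were at 87.81 and 75.17 CPM with anti-miR-ctl, and at 33.59 and 34.60 CPM with anti-miR-145. The values rest on 1353 to 24536 counts of Myrf per library. The order of the group means was miR-ctl OLs, miR-145+miR-219 OLs, miR-145 OLs, anti-miR-ctl OPCs and anti-miR-145 OPCs. The libraries of the miR-145+miR-219 group overlapped those of both neighbours in this order, and in each OL group replicate 2 held more Myrf than replicate 1.

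Dusp15 (ENSRNOG00000008534) followed the same order of group means. Its levels in replicates 1 and 2 were 270.4 and 231.8 CPM in miR-ctl OLs, 158.0 and 166.7 CPM in miR-145 OLs, and 165.1 and 220.1 CPM in miR-145+miR-219 OLs. In OPCs they were 24.79 and 23.40 CPM with anti-miR-ctl and 11.07 and 11.06 CPM with anti-miR-145. These rest on 446 to 10760 counts. Both miR-ctl OL libraries lay above the other 4 OL libraries, and the miR-145 and miR-145+miR-219 libraries overlapped.

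Tmem98 (ENSRNOG00000021316) had another order. It was at 23.76 and 32.36 CPM in miR-145+miR-219 OLs, at 26.05 and 28.89 CPM in miR-145 OLs, and at 19.72 and 23.00 CPM in miR-ctl OLs. In OPCs it was at 14.42 and 14.10 CPM with anti-miR-145 and at 12.51 and 12.82 CPM with anti-miR-ctl. The lowest group mean was thus that of the control in both cell types, where Myrf and Dusp15 had their highest group means. It rested on 468 to 1153 counts per library, and levels are not compared between genes because gene lengths were not used.

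**Figure D1:**
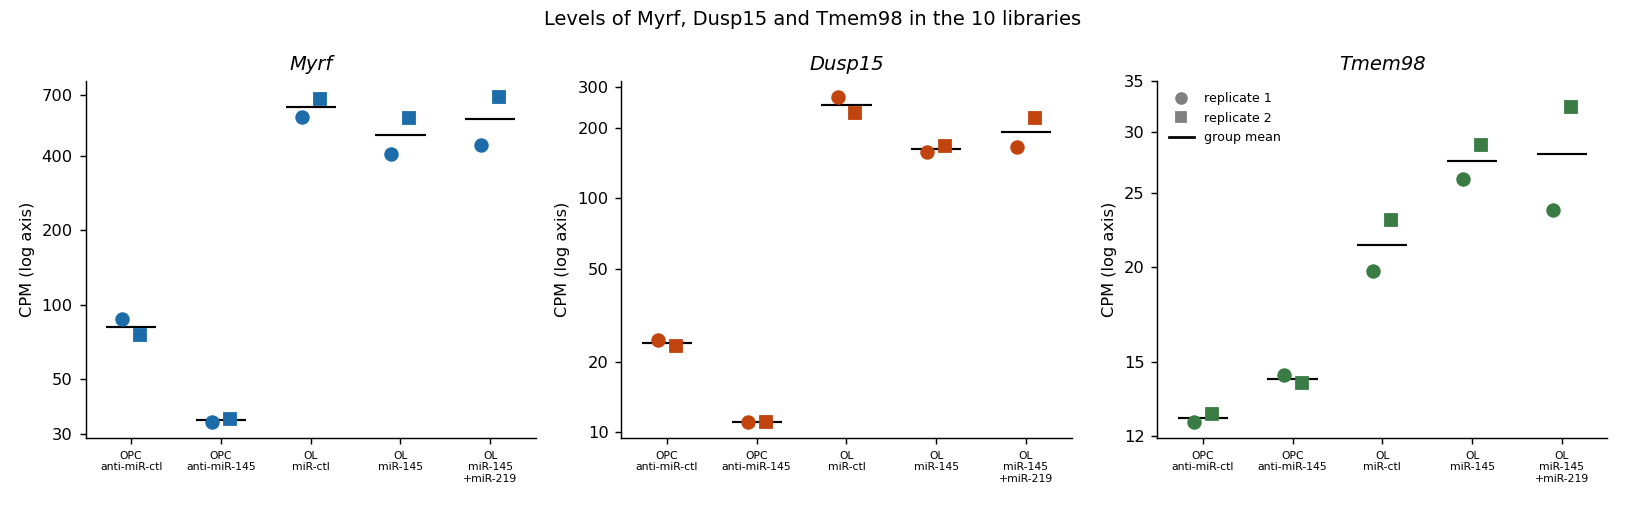
CPM on a log axis for Myrf, Dusp15 and Tmem98 in the 5 groups, with a circle for replicate 1, a square for replicate 2 and a line at the group mean (n = 2). Myrf and Dusp15 lie lowest in anti-miR-145 OPCs, at 33.59 to 34.60 and 11.06 to 11.07 CPM, while Tmem98 lies lowest in anti-miR-ctl OPCs, at 12.51 to 12.82 CPM.

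The comparison of control OLs with control OPCs asks how the 3 genes differ between the cell types, and it was not used to choose them, although it contains the control libraries of both comparisons that were. All 3 genes were higher in miR-ctl OLs than in anti-miR-ctl OPCs with no overlap between the libraries. Myrf was 7.67-fold higher, a log2 fold change of 2.94 with a standard error (SE) of 0.13, and an adjusted p of 8.58e-05 by edgeR's quasi-likelihood test. Dusp15 was 10.4-fold higher (log2 fold change 3.38, SE 0.11, adjusted p of 4.78e-05 by the same edgeR test). Tmem98 was 1.68-fold higher (log2 fold change 0.75, SE 0.12, adjusted p of 0.00489 by the same edgeR test).

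This comparison called 28.8% of the 15721 genes tested as higher in OLs and 28.7% as lower, and both libraries of the first group were above both of the second for 41.2%, so that a call as higher was common. The call of Tmem98 was lost when an OPC library was left out, with an edgeR adjusted p of 0.0604 without replicate 1 of anti-miR-ctl and of 0.052 without replicate 2. The 2 groups also differed in medium, in time after transfection and in the kind of control oligonucleotide, and these cannot be told apart from the cell type. Of 6 astrocyte markers 5 were called higher in OLs and none lower, with sums of 413 to 443 CPM in OPCs and 4980 to 5820 CPM in OLs, and of 7 microglia markers 4 were called lower. Their part in the result was not tested.

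In OPCs, the inhibitor of miR-145-5p was compared with its control to see how the precursors respond to a loss of the miRNA. Myrf fell from a mean of 81.49 ± 8.938 CPM to 34.09 ± 0.7152 CPM (SD, n = 2), which is 2.36-fold lower, with a log2 fold change of -1.24 (SE 0.098). Dusp15 went from 24.10 ± 0.9839 CPM to 11.06 ± 0.01096 CPM (SD, n = 2), 2.16-fold lower, with a log2 fold change of -1.11 (SE 0.097). For both genes the 2 anti-miR-145 libraries lay below the 2 control libraries by more than the spread within either group. These falls chose the genes and carry no test here. Over all 15496 genes, 16.0% were called lower and 12.1% higher in this comparison, and the libraries did not overlap for 35.1% of genes with the lower values after the inhibitor and for 32.8% with the higher.

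Tmem98 differed little between the OPC groups, at 12.67 ± 0.2198 CPM in the control and 14.26 ± 0.2296 CPM with the inhibitor (SD, n = 2). Its log2 fold change was 0.19 (SE 0.10), and both anti-miR-145 libraries lay above both control libraries. Within these OPCs the summed astrocyte markers were lower with the inhibitor, at 218 to 273 CPM against 413 to 443 CPM, while Gfap alone, the filament protein of astrocytes, was at 40.7 and 51.1 CPM against 8.23 and 7.81 CPM. Of the 6 astrocyte markers 1 was called higher and 2 lower by edgeR, and of 7 microglia markers 3 and 3, with summed levels of 666 to 823 CPM with the inhibitor and 767 to 820 CPM in the control. Of 4 neuronal markers 2 were called higher and none lower, with sums of 103 to 104 CPM against 71.1 to 74.2 CPM. No marker of fibroblasts or mural cells was called. The part of other cells in these values was not tested.

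In OLs, the mimic was compared with miR-ctl to see how an excess of miR-145 acts on maturing cells. The differences in Myrf and Dusp15 again chose the genes. Dusp15 was 1.54-fold lower in miR-145 OLs, at 162.4 ± 6.174 CPM against 251.1 ± 27.28 CPM (SD, n = 2), with a log2 fold change of -0.62 (SE 0.13). Myrf was 1.28-fold lower, at 486.7 ± 115.8 CPM against 626.7 ± 72.83 CPM (SD, n = 2), with a log2 fold change of -0.36 (SE 0.20). The highest miR-145 library, at 568.6 CPM, was close below the lowest miR-ctl library, at 575.2 CPM. The size of the fall in Myrf depended on single libraries. Its log2 fold change was -0.13 without replicate 1 of miR-145, -0.63 without replicate 2 of miR-145, and -0.24 without replicate 2 of miR-ctl. Libraries of the same number were at 404.9 against 575.2 CPM and at 568.6 against 678.2 CPM. With a term for the replicate number the log2 fold change was -0.37, but no label says that same-numbered libraries share a culture.

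Tmem98 was 1.29-fold higher in miR-145 OLs, at 27.47 ± 2.010 CPM against 21.36 ± 2.316 CPM (SD, n = 2), with a log2 fold change of 0.37 (SE 0.14) and no overlap of the libraries. Libraries failed to overlap for a large share of all genes in this comparison, with 24.4% of 15461 genes lower and 22.9% higher in both miR-145 libraries. The edgeR test called 0.0% of these genes, 13.4% had an unadjusted p under 0.05, and DESeq2 called 4.2%. Markers of astrocytes and of fibroblasts or mural cells lay in the same direction as Tmem98. The summed astrocyte markers were at 8250 to 12000 CPM against 4980 to 5820 CPM, with all 6 higher in both miR-145 libraries and 4 called higher by DESeq2. Those of fibroblasts or mural cells were at 10.6 to 54.2 CPM against 3.77 to 4.39 CPM, with all 4 of those tested higher in both miR-145 libraries and 2 called by DESeq2, and replicate 2 of miR-145 stood apart, with Col3a1 at 29.9 CPM against 3.06 CPM in replicate 1. Those of microglia overlapped, at 289 to 730 CPM against 283 to 427 CPM, with 7 of 7 log2 fold changes positive and 1 called higher by DESeq2. Neuronal markers had no shared direction, with 2 of 4 log2 fold changes positive and 2 negative. Their sums also overlapped, at 106 to 136 CPM against 124 to 128 CPM. Of 8 markers of the oligodendrocyte lineage, 7 had negative log2 fold changes and 1 a positive one, with a median of -0.37. Among these 8, 5 were lower without overlap of the libraries (24.4% of all genes), and DESeq2 called 1 lower. Their sums overlapped, at 16100 to 24600 CPM against 17600 to 30700 CPM. The edgeR test called none of the markers of these lists, and their part in the levels of Myrf, Dusp15 and Tmem98 was not tested.

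In OLs also given miR-219, a miRNA known to promote OL differentiation, the means of Myrf and Dusp15 lay between those of miR-ctl and miR-145 OLs. Both genes were chosen as lower in miR-145 than in miR-ctl libraries, so a mean between these partly follows from the choice. Against miR-ctl OLs, whose libraries also served in the comparison with miR-145, the log2 fold change in miR-145+miR-219 OLs was -0.15 (SE 0.25) for Myrf, with an edgeR adjusted p of 0.957. The libraries of the 2 groups overlapped for Myrf. Dusp15 had a log2 fold change of -0.38 (SE 0.18) and Tmem98 one of 0.40 (SE 0.19), each with no overlap of the libraries and each with an edgeR adjusted p of 0.814. Libraries that did not overlap were again common, lower in miR-145+miR-219 OLs for 19.4% of genes and higher for 17.3%. The edgeR test called 0.0% of 15436 genes here, DESeq2 called 106, and 956 had an unadjusted p under 0.05. The sum of astrocyte markers was again above that of miR-ctl OLs, at 5910 to 9960 CPM against 4980 to 5820 CPM. Of the 6, 4 were higher without overlap of the libraries, as were all 3 fibroblast or mural markers tested. Sums of the latter were 8.32 to 9.88 CPM against 3.77 to 4.39 CPM. Of 7 microglia markers 2 were higher and none lower without overlap, and of 8 oligodendrocyte lineage markers 1 and 3. The part of these cells was not tested.

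Set directly against miR-145 OLs, whose libraries also served to choose the genes, the miR-145+miR-219 libraries overlapped for all 3 genes. The log2 fold change was 0.20 (SE 0.29) for Myrf, 0.24 (SE 0.17) for Dusp15 and 0.02 (SE 0.19) for Tmem98, each with an edgeR adjusted p of 1.0. The edgeR test called 0.0% of 15501 genes, against 9 called by DESeq2 and 228 with an unadjusted p under 0.05. No difference in the 3 genes was detected between the OL groups given mimics. With SEs of this size, that does not show that the groups were alike.

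**Figure D2:**
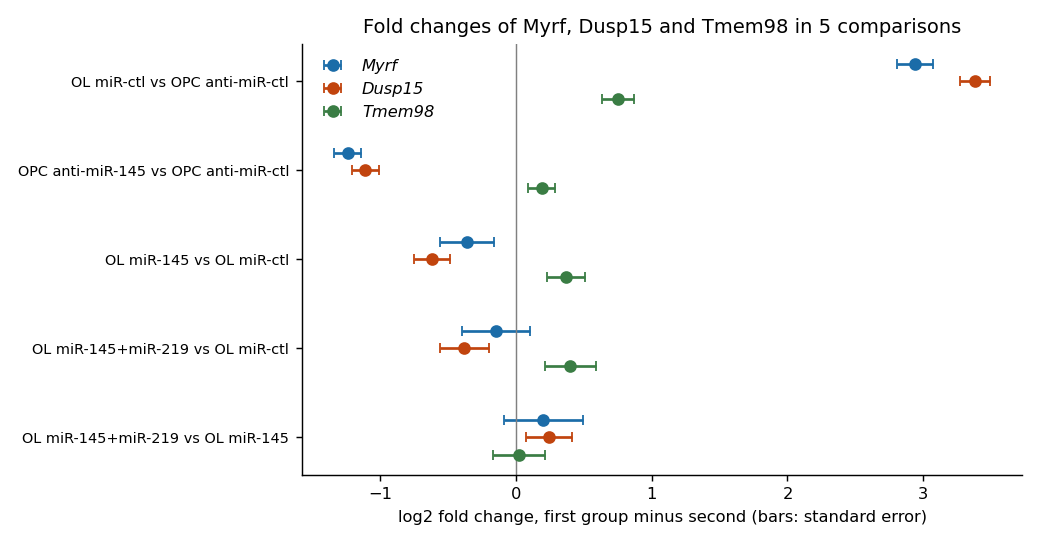
Log2 fold change of Myrf, Dusp15 and Tmem98 in the 5 comparisons, first group minus second, with bars for the SE. Myrf and Dusp15 lie at 2.94 and 3.38 between control OLs and OPCs and at -1.24 and -1.11 with the inhibitor, whereas Tmem98 is at 0.75 and 0.19.

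Because Dusp15 is a target of Myrf, and Tmem98 its inhibitor, the counts of both were also set against those of Myrf within each library. Dusp15 lay between 28.2 and 47.0 counts per 100 Myrf counts in all 10 libraries, although Myrf itself ranged from 33.59 to 688.6 CPM. In replicates 1 and 2 this ratio was 47.0 and 34.2 in miR-ctl OLs, 39.0 and 29.3 in miR-145 OLs, and 37.5 and 32.0 in miR-145+miR-219 OLs. It was 28.2 and 31.1 in anti-miR-ctl OPCs and 33.0 and 32.0 in anti-miR-145 OPCs. The OL groups overlapped, and the OPC groups lay near the lower end of the OL libraries. In all 3 OL groups the ratio was lower in replicate 2. Myrf and Dusp15 were chosen for lower values in the same groups, so a steady ratio partly follows from that choice. No test of the ratio was made.

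Tmem98 was at a low ratio in OLs and at a higher one in OPCs. There were 3.43 and 3.39 Tmem98 counts per 100 Myrf counts in miR-ctl OLs, 6.43 and 5.08 in miR-145 OLs, and 5.41 and 4.70 in miR-145+miR-219 OLs. In OPCs the ratio was 14.3 and 17.1 with anti-miR-ctl and 42.9 and 40.7 with anti-miR-145. The libraries of each treated group lay above those of their own control without overlap. Since the ratio holds Myrf, part of this pattern follows from how the genes were chosen, and no test was made.

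**Figure D3:**
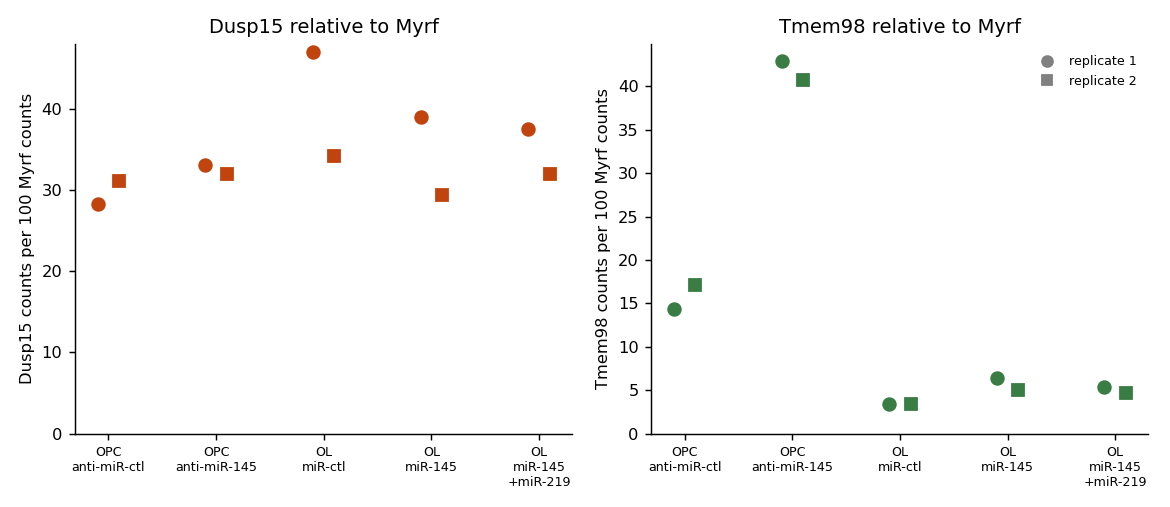
Counts of Dusp15 (left) and Tmem98 (right) per 100 Myrf counts in each library, on axes that start at 0. Dusp15 stays between 28.2 and 47.0, while Tmem98 runs from 3.39 in miR-ctl OLs to 42.9 in anti-miR-145 OPCs.

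Genes whose levels ran most like those of each gene were sought over all 10 libraries. Likeness was the root mean square (RMS) difference between profiles of log2(CPM + 1), each centred on its own mean, and 12521 other genes with a symbol and a mean of at least 1 CPM were ranked. The gene nearest to Myrf was Dusp15, and the gene nearest to Dusp15 was Myrf, with an RMS difference of 0.197. Both had been picked for a shared direction in 2 of the comparisons, and all profiles share the 10 libraries and the large step between OPCs and OLs.

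After Dusp15, the genes nearest to Myrf were Slc12a7 (0.239), a potassium-chloride cotransporter, Gadd45b (0.247), a stress-response gene, Fmnl2 (0.270), a formin that builds actin filaments, and the scaffold gene Ahnak (0.276). Those nearest to Dusp15 after Myrf were the kinesin family gene Kif26a (0.211), Gadd45b (0.217), Kif21a (0.225) and Fmnl2 (0.245). Slc12a7, for example, had group means of 123 CPM in miR-ctl OLs, 95.5 CPM in miR-145 OLs, 10.3 CPM in anti-miR-ctl OPCs and 5.66 CPM in anti-miR-145 OPCs. Tmem98 stood 1891st from Myrf and 1954th from Dusp15, with RMS differences of 1.322 and 1.395. Ranked from Tmem98, Myrf was at place 11654 and Dusp15 at place 11772 of 12521, so both were among the genes least like Tmem98. The genes nearest to Tmem98 were Pigq (0.085), Cdr2 (0.089), Abca3 (0.102), Tbc1d1 (0.112) and Ano10 (0.112). All had shallow profiles such as that of Pigq, at 91.4 CPM in anti-miR-ctl OPCs and 195 CPM in miR-145 OLs.

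The neighbours changed with the libraries used. When the 6 OL libraries alone were used, 0 of the 5 nearest genes were shared with the list above for each of the 3 genes, so that Dusp15 was then not among the 5 nearest to Myrf.

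**Figure D4:**
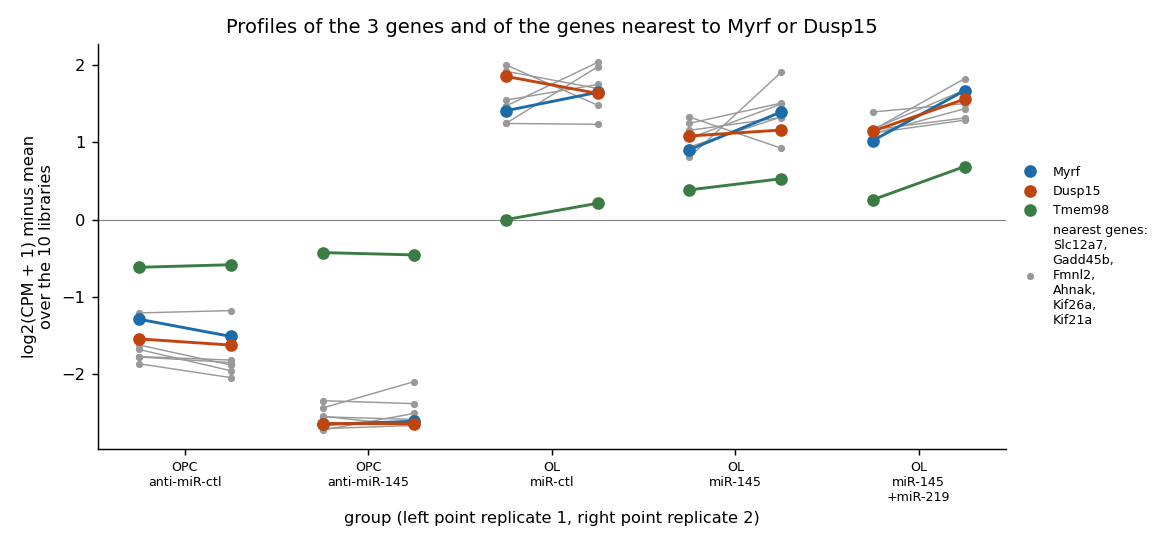
Log2(CPM + 1) minus its mean over the 10 libraries, by group, for Myrf, Dusp15, Tmem98 and, in grey, the genes nearest to Myrf or Dusp15, with a line joining the replicates of a group. Myrf and Dusp15 share a deep trough in anti-miR-145 OPCs, and Tmem98 has a shallow profile that is lowest in anti-miR-ctl OPCs.

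Upstream of Myrf stand the transcription factors and chromatin remodellers that drive OL differentiation, and 11 of them were tested. In OPCs given the inhibitor, where Myrf was lower, 5 of the 11 rose and 1 fell by edgeR's quasi-likelihood test at an adjusted p under 0.05, where 12.1% and 16.0% of all genes did. Nkx2-2, a homeodomain factor of differentiating cells, rose from 40.8 and 36.4 CPM to 71.5 and 66.8 CPM, a log2 fold change of 0.86 (SE 0.096) with an edgeR adjusted p of 0.000853. The lineage factors Olig1 and Olig2 rose by log2 fold changes of 0.65 (SE 0.081) and 0.55 (SE 0.079). Zeb2, a zinc-finger factor that relieves inhibition of differentiation, fell from 163 and 155 CPM to 88.0 and 112 CPM, a log2 fold change of -0.65 (SE 0.12). The other 2 that rose, named after their values were seen, were Sox10 (0.33), which is known to activate Myrf, and the remodeller Smarca4 (0.41).

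In OLs given miR-145, none of the 11 was called by edgeR, 5 had an unadjusted p under 0.05, and DESeq2 called 2 of them lower, namely Sox10 and Tcf7l2. Over all 15461 genes, edgeR called 0.0%, 13.4% had an unadjusted p under 0.05, and DESeq2 called 4.2% in either direction. Sox10 was at 434 and 454 CPM against 670 and 669 CPM with miR-ctl. Its log2 fold change was -0.59 (SE 0.12), with an adjusted p of 0.167 by edgeR and of 0.000854 by DESeq2. Tcf7l2, a Wnt effector needed for differentiation, had a log2 fold change of -0.56 (SE 0.10), Nkx2-2 one of -0.83 (SE 0.29) and Olig2 one of -0.37 (SE 0.13). The median over the 11 genes was -0.25, beside -0.01 over all genes, and it was -0.08 without replicate 1 of miR-145.

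Between control OLs and control OPCs, 7 of the 11 upstream genes were called higher and 4 lower in OLs, where 28.8% and 28.7% of all genes were. Nkx6-2, a homeodomain factor of maturing OLs, had the largest log2 fold change, at 3.41 (SE 0.23), followed by Tcf7l2 at 2.07 (SE 0.085) and Nkx2-2 at 1.24 (SE 0.20). Olig1 was lower in OLs, at -1.33 (SE 0.082).

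Of the other genes that act on Myrf protein, Fbxw7, a ubiquitin ligase subunit that marks Myrf for breakdown, and Gsk3b, a kinase that precedes it, were measured, and the family member Myrfl had no row under that symbol. Neither was called in anti-miR-145 OPCs, where Fbxw7 had a log2 fold change of -0.29 (SE 0.095, edgeR adjusted p of 0.0625) and Gsk3b one of 0.00 (SE 0.14). Without replicate 1 or replicate 2 of anti-miR-145, Fbxw7 was called, with edgeR adjusted p of 0.031 and 0.0475. Gsk3b was then called in opposite directions, at 0.21 without replicate 1 and at -0.23 without replicate 2. Fbxw7 was lower (-0.46, SE 0.10) and Gsk3b higher (0.32, SE 0.073) in control OLs than in control OPCs, and both calls were lost without either library of anti-miR-ctl, with edgeR adjusted p of 0.119 and 0.126 for Fbxw7 and of 0.111 and 0.175 for Gsk3b.

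Downstream of Myrf, 13 myelin genes were examined, and transferrin was listed under its older symbol Trf. In control OLs against control OPCs, 11 of the 13 were called higher and none lower (28.8% and 28.7% of all genes), with a median log2 fold change of 2.93 beside 0.01 over all genes. The 2 not called, named after their values were seen, were Mog (0.46, SE 0.42) and Ermn (-0.06, SE 0.81), whose libraries overlapped. Cldn11, the tight junction protein of myelin, had the largest rise, at 7.13 (SE 0.41), followed by Mag, a myelin glycoprotein, at 6.66 (SE 0.41), and Mbp was at 5.18 (SE 0.41). These rises were larger than the 2.94 of Myrf in size, but the difference was not tested.

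In OPCs given the inhibitor the myelin genes did not move together. By edgeR, 2 rose and 1 fell of 13, near the 12.1% and 16.0% of all genes, and the median log2 fold change was -0.22, beside 0.00 over all genes. Mobp, a basic protein of myelin, fell from 3.30 and 4.27 CPM to 1.56 and 1.77 CPM, a log2 fold change of -1.16 (SE 0.22, edgeR adjusted p of 0.00848). Cldn11 rose from 7.32 and 8.06 CPM to 16.8 and 17.1 CPM, a log2 fold change of 1.15 (SE 0.11, edgeR adjusted p of 0.000444). Mag rose by a log2 fold change of 0.38 (SE 0.11, edgeR adjusted p of 0.0362), a call that was lost without replicate 1 or replicate 2 of anti-miR-ctl, at adjusted p of 0.285 and 0.255, and with DESeq2, at 0.0899. DESeq2 also called Ugt8, named after its value was seen, as lower (adjusted p of 0.0314 by DESeq2 and 0.0588 by edgeR), so that it had 1 of 13 higher and 2 lower. In a single fit over all 5 groups Mobp and Cldn11 were not called either, with edgeR adjusted p of 0.385 and 0.0815. Opalin, a gene of myelinating OLs, was at -0.45 (SE 0.21) and was not called.

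In OLs given miR-145, 0 of the 13 myelin genes were called by edgeR and by DESeq2, and 0 had an unadjusted p under 0.05 (0.0%, 4.2% and 13.4% of all genes). Their median log2 fold change was -0.19, but 0.15 without replicate 1 of miR-145 and 0.43 without replicate 2 of miR-ctl. The replicates lay far apart in both groups. Ermn, a cytoskeletal gene of mature OLs, was at 2.97 and 12.1 CPM against 0.804 and 5.53 CPM with miR-ctl (log2 fold change 1.27, SE 1.0). Mobp had a log2 fold change of 1.19 (SE 0.74), Mog one of 0.81 (SE 0.54) and Opalin one of 0.79 (SE 0.60). For each of these genes replicate 2 was above replicate 1 in both groups, as it was for Myrf. Once the edgeR model included this number, Ermn (1.45), Mobp (1.43), Mog (0.84) and Opalin (0.82) were called higher. Their edgeR adjusted p was then at most 5.77e-06, and 2272 genes in all were called. The lack of calls for these genes thus depended on leaving the number out. It was left out because no label says that same-numbered libraries share a culture. The other myelin genes are not reported from that fit. Its added term left less to estimate the spread from in 4 libraries, so its p-values and calls need caution.

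Genes that hold back differentiation or mark OPCs had 6 of 10 called lower and 1 called higher in OPCs given the inhibitor, where 16.0% and 12.1% of all genes were. Their median log2 fold change was -0.48, beside 0.00 over all genes. Hes5 and Hes1, targets of Notch signalling that repress differentiation, fell by log2 fold changes of -1.76 (SE 0.31) and -1.09 (SE 0.20), from levels of 1.37 to 3.18 CPM in the control, and Hes1 had an edgeR adjusted p of 0.0513 when all 5 groups were fitted together. The gene that rose, named after its value was seen, was Pdgfra (0.61, SE 0.11). In control OLs 5 of the 10 were called lower than in control OPCs and 2 higher (28.7% and 28.8% of all genes), among them the proteoglycan gene Cspg4 (-2.93, SE 0.25). In OLs given miR-145 none of the 10 was called by edgeR or by DESeq2, and 1 had an unadjusted p under 0.05 (0.0%, 4.2% and 13.4% of all genes). Hes5 had a log2 fold change of -0.73 (SE 0.41) there, and Id4, a repressor of differentiation, one of 0.67 (SE 0.27).

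The fall of Dusp15 in OPCs, for which it was chosen, was not shared by the other atypical dual-specificity phosphatases that were called. Among those not called, Dusp22 (-0.36, SE 0.20) and Dusp12 (-0.26, SE 0.12) were lower without overlap of the libraries, as 35.1% of all genes were. Of 9 tested with the inhibitor, 3 rose and none fell (12.1% and 16.0% of all genes), namely Dusp14 (log2 fold change 0.82, SE 0.14), Dusp18 (0.53, SE 0.11) and, named after its value was seen, Dusp3 (0.45, SE 0.079). The call of Dusp18 was lost without replicate 2 of anti-miR-ctl, with an edgeR adjusted p of 0.0932. In control OLs against control OPCs, 4 were called higher and 1 lower by edgeR (28.8% and 28.7% of all genes), and 3 and 0 by DESeq2, led by Dusp3 at 1.99 (SE 0.076) and Dusp28 at 1.43 (SE 0.33), both below the 3.38 of Dusp15. The call of Dusp28 was lost without replicate 2 of anti-miR-ctl, with an edgeR adjusted p of 0.106. In miR-145 OLs, 0 of 8 were called by edgeR and by DESeq2, and 2 had an unadjusted p under 0.05 (0.0%, 4.2% and 13.4% of all genes). The largest log2 fold changes were those of Dusp22 (0.75, SE 0.27) and Dusp14 (0.64, SE 0.18).

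**Figure D5:**
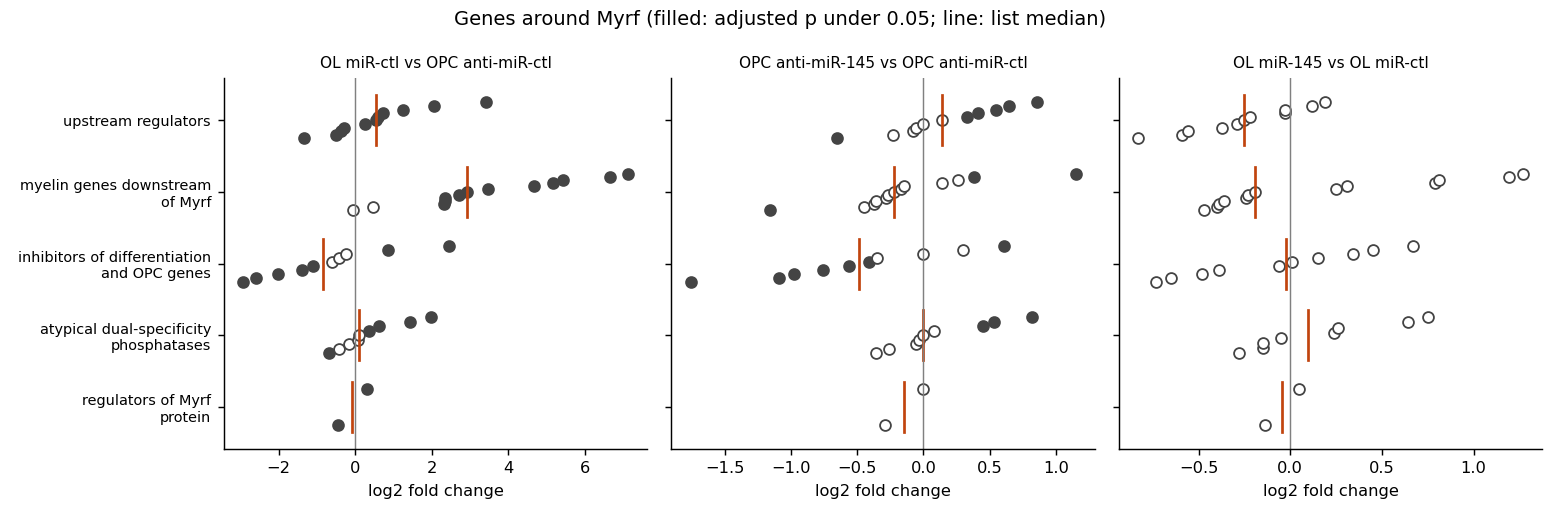
Log2 fold change of each gene in the 5 lists around Myrf, for control OLs against control OPCs (left), OPCs given the inhibitor (middle) and OLs given miR-145 (right), on axes of different range. Filled points had an edgeR adjusted p under 0.05 and the line is the list median, which for the myelin genes is at 2.93, -0.22 and -0.19, the last turning to 0.15 or 0.43 when replicate 1 of miR-145 or replicate 2 of miR-ctl is left out.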

How the data were processed

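The authors quantified reads against rat transcripts with Salmon 0.12.0, passed the result through tximport, and deposited a table of estimated counts that holds 23487 genes without normalization (genome build Rnor6.0 per the labels). A second deposited table, the authors' DESeq2 comparison of miR-145 and miR-ctl OLs, holds fold changes and p-values, of which none was used. Gene symbols came from it. The estimated counts were rounded. Samples were grouped by their titles.

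Each of 5 comparisons was fitted on its 4 libraries with edgeR 4.0.16 in R 4.3.3 (TMM, glmQLFit, glmQLFTest), keeping a gene where 2 or more libraries had 5 or more counts. A call required an adjusted p under 0.05 (Benjamini-Hochberg, over all genes tested). The SE is the size of the log2 fold change divided by the square root of F. CPM used TMM factors over the 10 libraries. Likeness and figures were made in Python 3.11.15 (matplotlib 3.10.9, pandas 2.3.3, numpy 2.4.6). The fits were tested on simulated data. Depth was ample for the 3 genes, so that the 2 libraries per group limited precision. Averaged over genes, replicates differed by more than counting noise in every group. That average need not hold for a single gene, and Dusp15 in anti-miR-145 OPCs, at 11.07 and 11.06 CPM, differed by less.

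The 3 genes and the lists were chosen with earlier results of these data known. Named from the lists are the 4 genes of largest absolute log2 fold change in the upstream and myelin lists and the 2 of largest in the inhibitor and phosphatase lists, in each of 3 comparisons (OLs given miR-145, OPCs given the inhibitor, control OLs against control OPCs), both regulators of Myrf protein, and the 5 genes nearest to each of the 3 genes, apart from items that are not reported here. Alternatives were DESeq2 1.42.0, its size factors in edgeR, no filter or a filter over all 10 libraries, a joint fit of the 5 groups, a term for the replicate number, leaving out each library, and, for likeness, log2(CPM + 0.1) and the 6 OL libraries. Sequences came from RefSeq tables of GRCr8 and no coordinates were taken over from Rnor6.0. Levels of mature miR-145-5p and miR-145-5p sites in transcripts were not analysed here.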

Additional observations from a re-analysis of the deposited data

How the results depend on the processing

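The directions of Myrf, Dusp15 and Tmem98 between OLs and OPCs, with miR-145 and with the inhibitor held under every alternative. Leaving out 1 library, the log2 fold change ranged from 2.81 to 3.05, 3.26 to 3.48 and 0.63 to 0.86 between control OLs and OPCs, from -1.37 to -1.15, -1.17 to -1.09 and 0.14 to 0.22 with the inhibitor, and from -0.63 to -0.13, -0.74 to -0.50 and 0.27 to 0.48 with miR-145. With miR-145+miR-219 against miR-ctl, Myrf reversed without replicate 1 of the former (range -0.52 to 0.15), whereas Dusp15 (-0.61 to -0.18) and Tmem98 (0.15 to 0.61) did not. Against miR-145, without replicate 1 of miR-145 and without replicate 2 of miR-145+miR-219, Myrf was at -0.03 and -0.16 (highest 0.49) and Tmem98 at -0.06 and -0.22 (highest 0.23). In miR-145 OLs, Ermn and Opalin were at -0.08 and -0.02 without replicate 2 of miR-145 (highest 3.23 and 1.70). With the inhibitor, Gsk3b was at -0.01 with no filter and with the block below, and at -0.23 and -0.05 without replicate 2 of anti-miR-145 and of anti-miR-ctl (highest 0.21). Their causes were not tested.

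In the order miR-145, miR-145+miR-219 and both mimics against miR-145, 0 genes were called by edgeR, and 649, 106 and 9 by DESeq2. With no filter 1 gene was called for miR-145+miR-219. With all 5 groups in 1 fit, 32 were called for miR-145, and 2553 rather than 4348 with the inhibitor. Leaving out a library gave 2424 to 7130 calls with the inhibitor and 5016 to 10591 between OLs and OPCs. A term for the replicate number (block) gave 2272, 132 and 184 calls for the mimics, 3963 with the inhibitor and 8534 between OLs and OPCs, with Myrf at 2.94, Dusp15 at 3.37 and Tmem98 at 0.74 in the last. The block called Nkx2-2, Sox10, Tcf7l2 and Olig2 lower and Ermn, Mobp, Mog, Opalin, Id4 and Dusp14 higher in miR-145 OLs, and no longer called Mag with the inhibitor (adjusted p 0.0615). Deviations of same-numbered libraries correlated at 0.396 to 0.622 between OL groups, 0.0646 between control OLs and OPCs and -0.141 between OPC groups. With 2 numbers and no stated shared culture, the number was not taken as a pairing. A crossed block, added after seeing the data, gave 5536 calls with the inhibitor. With log2(CPM + 0.1), 3, 4 and 4 of the 5 nearest genes of Myrf, Tmem98 and Dusp15 were kept.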
